A study of Homo sapiens with 6 samples.

Results

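The genes described here encode the nuclear subunits of mitochondrial complex I and the assembly factors named after it. They were chosen by symbol, as every row of the expression table that starts with NDUFA, NDUFB, NDUFC, NDUFS, NDUFV, NDUFAB or NDUFAF followed by a number. The rule took 73 of 30716 rows, which were 39 subunit genes, 8 assembly factor genes and 26 pseudogene, antisense or divergent transcript rows that were counted apart. RNA was sequenced from SNU16, a human gastric carcinoma cell line, in ENO1-knockdown cells (shENO1, n = 3) and in cells carrying a non-targeting control shRNA (shcon, n = 3). The shRNA against ENO1 was delivered by lentivirus and infected cells were enriched with puromycin, while the selection of the control cells is not described apart. Both groups are given as this 1 line, so they stand for 1 tumour. The comparison asked how the complex I genes differed after depletion of alpha-enolase, a glycolytic enzyme.

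Complex I, the NADH:ubiquinone oxidoreductase, takes electrons from NADH, passes them along iron-sulfur clusters to ubiquinone and pumps protons across the inner mitochondrial membrane. It is built of an N module that binds NADH, a Q module that reduces ubiquinone, and a membrane arm whose proximal and distal parts carry the proton pumps. The core of the membrane arm is encoded by mitochondrial DNA, whereas the other core subunits, the accessory subunits and the assembly factors are encoded in the nucleus. Assembly factors join subunits into intermediates and are absent from the finished enzyme.

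The ENO1 transcript was at 27.0% of its control level, with 84.9 to 99.5 FPKM (fragments per kilobase of transcript, scaled to depth) in shENO1 and 312 to 387 FPKM in shcon libraries. Its log2 fold change was -1.88 with an adjusted p of 0.000425 in limma, and the exact permutation test gave 0.1, the smallest value for 3 libraries against 3. The libraries held an estimated 15572374 to 16963859 fragments. Of the epithelial markers, KRT8 and KRT18 were high at 85.9 to 278 FPKM, EPCAM and CDH1 reached at most 1.59 FPKM and KRT19 at most 0.0515 FPKM. The 5 epithelial markers summed to 189 to 220 FPKM in shENO1 libraries and 410 to 535 FPKM in shcon libraries. The sums of 3 fibroblast markers (COL1A1, DCN, LUM) were 14.2 to 14.8 FPKM in shENO1 and 21.5 to 28.3 FPKM in shcon, and those of 3 endothelial markers 3.87 to 5.00 FPKM in shENO1 and 9.32 to 16.4 FPKM in shcon, nearly all of it CDH5 with VWF and PECAM1 at most 0.109 FPKM. The sum of 3 leukocyte markers was 0.803 to 1.38 in shENO1 and 0.901 to 1.21 in shcon, with PTPRC at most 0.00656 FPKM. The identity of the line was taken as given and was not tested against these markers. The part of these markers in the results below was not tested. In bulk RNA, fewer cells of a type and less RNA per cell cannot be told apart.

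About as many complex I subunit transcripts were lower after ENO1 knockdown as did not pass the test, and 0 were higher. Of the 39 subunit genes, 37 reached a mean of 0.5 FPKM over the 6 libraries and were tested, while NDUFA7 and NDUFA4L2 stayed below it. Of the 37, 18 (48.6%) were lower in shENO1, 0 were higher and 19 did not pass the threshold, an adjusted p of 0.05 in limma over 15181 genes. Among all genes tested, 14.4% were lower and 15.1% were higher. At an unadjusted p of 0.05, 21 subunit genes were lower and 2 higher, against 3096 and 3428 of all 15181 genes. Limma-voom on fragments recovered from the FPKM values called 21 lower and 0 higher, against 16.3% and 17.8% of all genes. These fragments rest in part on fitted gene lengths, described below. The log2 fold change was below 0 for 34 of 37 subunit genes, with a median of -0.33 and a range of -1.08 to 0.34, whereas the median of all genes was 0.03. Every shENO1 library lay below every shcon library for 24 subunit genes (64.9%, against 21.5% of all genes) and above every shcon library for 2 (25.0% of all genes). Mean levels of the 37 genes spanned 0.788 to 167 FPKM in shENO1 and 0.886 to 255 FPKM in shcon.

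**Figure D1:**
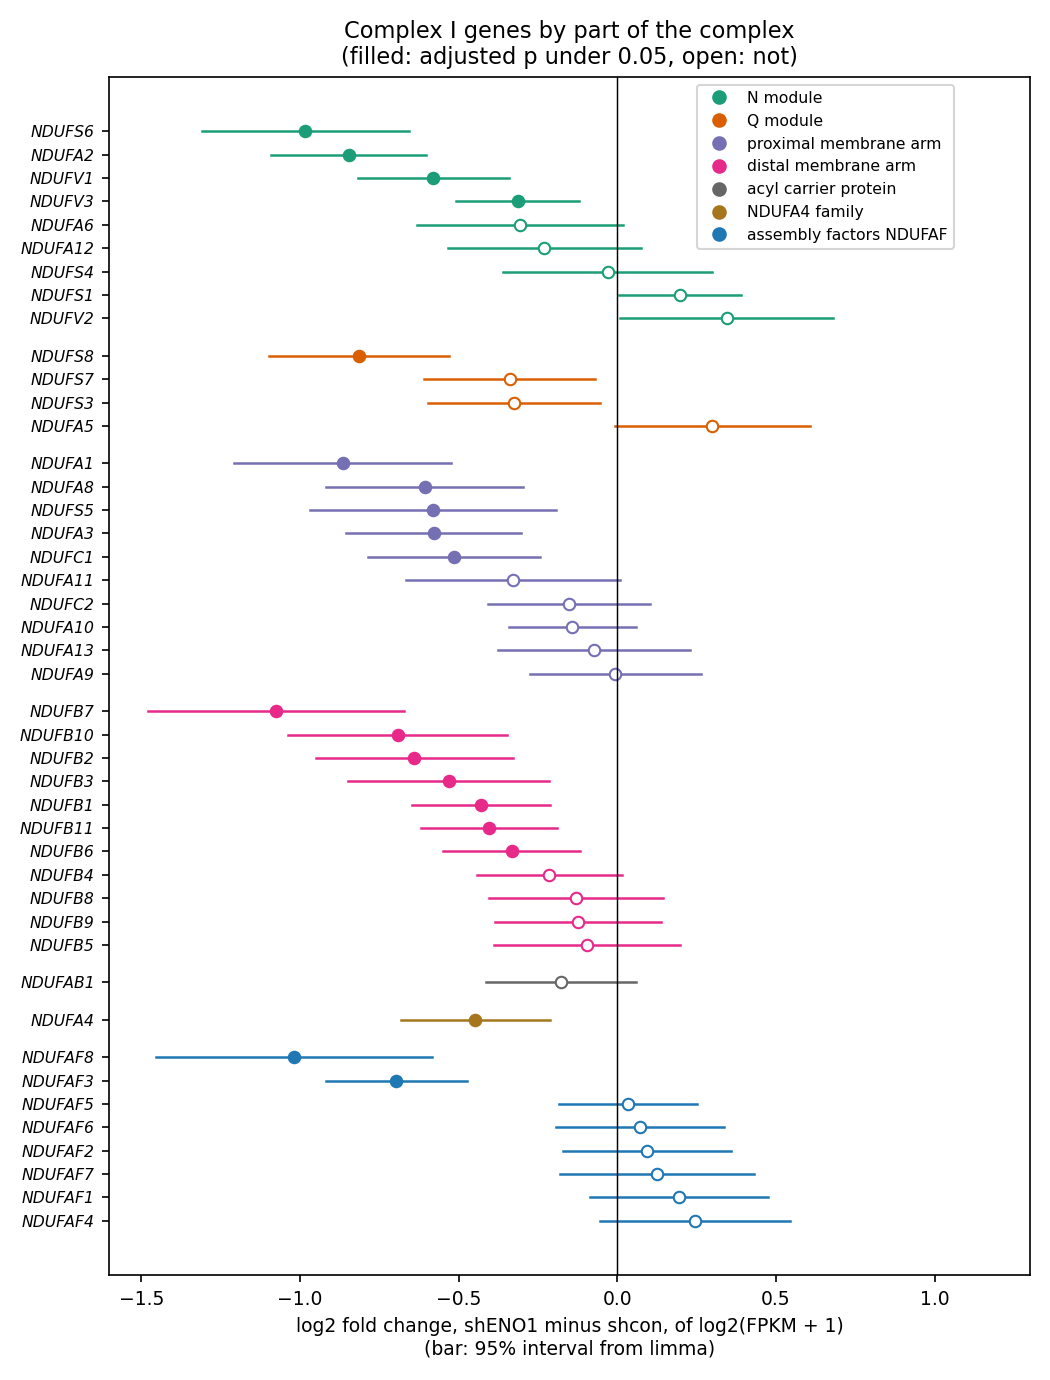
Log2 fold changes (shENO1 minus shcon, horizontal axis, of log2(FPKM + 1)) of complex I genes tested, grouped by part of the complex, with 95% intervals from limma. Filled points passed an adjusted p of 0.05. The 18 filled subunit points lie between -1.08 and -0.31, and 6 of the 8 assembly factors lie above 0 as open points.

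The N module had 4 of 9 tested genes lower, against 14.4% of all genes, with a median log2 fold change of -0.31. Without shENO1 replicate 2, shENO1 replicate 3 or shcon replicate 1 it had 3 of 9 lower, against 4.98%, 5.91% and 6.18% of all genes. NDUFS6, a zinc-binding accessory subunit that joins late in assembly (chr5:1801407-1816048, GRCh38), had 60.9, 45.5 and 47.0 FPKM in shENO1 libraries, against 98.2, 91.0 and 115.9 FPKM in shcon libraries. All shENO1 values lay below all shcon values, and the log2 fold change was -0.98 ± 0.14 (SE) with an adjusted p of 0.00468. NDUFA2, an accessory subunit with a thioredoxin fold (chr5:140638740-140647771), had 9.85, 9.32 and 8.15 FPKM in shENO1, against 17.0, 15.7 and 18.8 FPKM in shcon. Its groups did not overlap either, and it fell by 0.85 on the log2 scale (adjusted p = 0.00366), the lowest adjusted p among the subunit genes. NDUFV1, the core subunit that binds NADH and flavin mononucleotide, and NDUFV3, an accessory subunit beside it, were lower with log2 fold changes of -0.58 and -0.31. The core subunits NDUFS1 and NDUFV2, which carry iron-sulfur clusters, were the 2 genes whose shENO1 libraries all lay above the shcon libraries, a feature picked after their values were seen. Their log2 fold changes of 0.20 and 0.34 did not pass the test, with adjusted p values of 0.107 and 0.109, and with the trends of GC content and length described below removed NDUFS1 was at -0.14 and NDUFV2 at 0.28. The accessory subunits NDUFA12 and NDUFS4 had log2 fold changes of -0.23 and -0.03 and did not pass, and NDUFA7 averaged 0.461 FPKM in shENO1 and 0.380 FPKM in shcon and was not tested.

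The Q module had 1 of 5 tested genes lower, against 14.4% of all genes, with a median of -0.34. This was NDUFS8, a core subunit with iron-sulfur clusters (chr11:68030617-68036644), with 17.3, 12.5 and 14.2 FPKM in shENO1 libraries, against 26.4, 25.0 and 27.5 FPKM in shcon libraries. The groups were apart, and the log2 fold change was -0.81 ± 0.12 (SE, adjusted p = 0.00513). The core subunits NDUFS3 and NDUFS7 had log2 fold changes of -0.33 and -0.34 and adjusted p values of 0.0717 and 0.0616. With the replicate number as a block, NDUFS3 passed the test (adjusted p = 0.031), and 20 subunit genes in all were lower, 3 of 5 in this module, against 17.9% of all genes. With limma-voom 4 of 5 genes of the module were lower, against 16.3% of all genes. Without shENO1 replicate 1 or shcon replicate 3, 2 of 5 were lower, against 15.4% and 18.4% of all genes. The accessory subunit NDUFA5 had a log2 fold change of 0.30 that did not pass (adjusted p = 0.125), and of -0.23 with those trends removed (adjusted p = 0.169).

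In the proximal membrane arm 5 of 10 tested genes were lower, against 14.4% of all genes. All 10 had a log2 fold change below 0, with a median of -0.42. NDUFA1, a small membrane-spanning accessory subunit needed for assembly (chrX:119871832-119876662), had 75.1, 58.0 and 62.5 FPKM in shENO1, against 134, 98.1 and 128 FPKM in shcon. No shENO1 library reached a shcon library, and the fall was 0.87 on the log2 scale (adjusted p = 0.00701). Over its exon bases, 44.5% overlap RNF113A on the other strand, and strand use in counting is not given in the sources used here. RNF113A had a log2 fold change of -0.06 that did not pass (adjusted p = 0.705). NDUFA8, an accessory subunit on the intermembrane space side (chr9:122144058-122159779), had 52.7, 44.7 and 47.2 FPKM in shENO1, against 69.3, 64.7 and 89.2 FPKM in shcon. Its groups did not overlap and the log2 fold change was -0.61 ± 0.13 (SE, adjusted p = 0.0151). NDUFS5, NDUFA3 and NDUFC1 were lower as well, with log2 fold changes of -0.58, -0.58 and -0.51. NDUFA11 (-0.33), NDUFC2 (-0.15), NDUFA10 (-0.14), NDUFA13 (-0.07), also known as GRIM-19, and NDUFA9 (-0.01) did not pass. The count for this arm was 1 of 10 without shENO1 replicate 2 or 3 and 2 of 10 without shcon replicate 1. Of all genes, 4.98%, 5.91% and 6.18% were lower in these fits, in that order.

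In the distal membrane arm 7 of 11 tested genes were lower, against 14.4% of all genes. All 11 were below 0, with a median of -0.40. NDUFB7, an accessory subunit on the intermembrane space side (chr19:14566078-14572066), had 92.9, 57.6 and 70.9 FPKM in shENO1 libraries, against 161, 135 and 167 FPKM in shcon libraries. This was the lowest log2 fold change among the subunits, -1.08 ± 0.17 (SE, adjusted p = 0.00621), and the groups were apart. NDUFB10, also on that side (chr16:1959538-1961975), had 64.3, 48.8 and 54.1 FPKM in shENO1, against 87.0, 77.5 and 108 FPKM in shcon. The groups did not overlap, and the log2 fold change was -0.69 ± 0.15 (SE, adjusted p = 0.0141). NDUFB2, a small accessory subunit (chr7:140690777-140722790), had 9.26, 7.82 and 7.61 FPKM in shENO1, against 12.8, 11.5 and 16.0 FPKM in shcon. It was lower without overlap (log2 fold change -0.64 ± 0.13, SE, adjusted p = 0.0127), and 35.9% of its exon bases overlap other genes, mostly on the other strand. NDUFB3, NDUFB1, NDUFB11 and NDUFB6 had log2 fold changes of -0.53, -0.43, -0.40 and -0.33 and passed the test. For NDUFB11, 44.9% of the exon bases overlap RBM10 on the other strand. RBM10 had a log2 fold change of -0.49 that did not pass (adjusted p = 0.0586), but it passed with the replicate number as a block (adjusted p = 0.0152). The part of this overlap in the value of NDUFB11 was not tested. NDUFB8 (-0.13), NDUFB9 (-0.12) and NDUFB5 (-0.09) did not pass. The count for this arm was 1 of 11 without shENO1 replicate 2 or 3 and 3 of 11 without shcon replicate 1. Of all genes, 4.98%, 5.91% and 6.18% were lower in these fits, in that order.

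The calls cut across the parts of the complex. Of the 7 core subunits 2 were lower (NDUFV1 and NDUFS8, median -0.34), and of 29 accessory subunits 15 were lower (median -0.33), against 14.4% of all genes. The accessory count was 4 without shENO1 replicate 2 or 3 and 7 without shcon replicate 1, while the core count was 2 in each of these fits. Of all genes, 4.98%, 5.91% and 6.18% were lower in these fits, in that order. The 4 accessory subunits with paired cysteine motifs of the CHCH fold, which are imported into the intermembrane space and held by disulfide bonds, were NDUFB7, NDUFB10, NDUFA8 and NDUFS5, and all 4 were lower with a median of -0.65, but 1 of 4 without shENO1 replicate 2 or 3. With limma-voom 5 of the 7 core subunits were lower, and with the replicate block 4, against 16.3% and 17.9% of all genes. The largest uncalled subunit transcript was NDUFB4, an accessory subunit of the distal arm, with 56.3, 50.8 and 51.8 FPKM in shENO1 libraries, against 58.5, 57.8 and 68.8 FPKM in shcon libraries. Its groups were narrowly apart, and the log2 fold change of -0.21 had a 95% interval of -0.44 to 0.02 (adjusted p = 0.139). NDUFA6, an accessory subunit of the N module from the LYR family, had 35.1, 34.7 and 32.0 FPKM in shENO1, against 41.8, 34.8 and 51.5 FPKM in shcon. Its lowest shcon library lay between the shENO1 libraries, and the log2 fold change of -0.31 did not pass (95% interval -0.63 to 0.02, adjusted p = 0.135). NDUFAB1, the mitochondrial acyl carrier protein, had 29.4, 29.7 and 31.2 FPKM in shENO1, against 32.3, 31.6 and 39.1 FPKM in shcon, with a log2 fold change of -0.18 (95% interval -0.41 to 0.06, adjusted p = 0.221). The shENO1 libraries were just below the shcon libraries.

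NDUFA4 carries a complex I name but is known as a subunit of cytochrome c oxidase. It had 34.5, 31.2 and 33.9 FPKM in shENO1 libraries, against 42.9, 42.9 and 51.5 FPKM in shcon libraries, and it was lower by a log2 fold change of -0.45 ± 0.10 (SE, adjusted p = 0.0165) without overlap. Without NDUFA4, 17 of 36 subunit genes were lower, against 14.4% of all genes, and the median was -0.33. Its paralog NDUFA4L2, which is known to be induced by hypoxia, was near 0, with 0.0437, 0.105 and 0.0229 FPKM in shENO1 and 0, 0.0446 and 0 FPKM in shcon, from 0 to 5 fragments per library. No test was made for it.

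**Figure D2:**
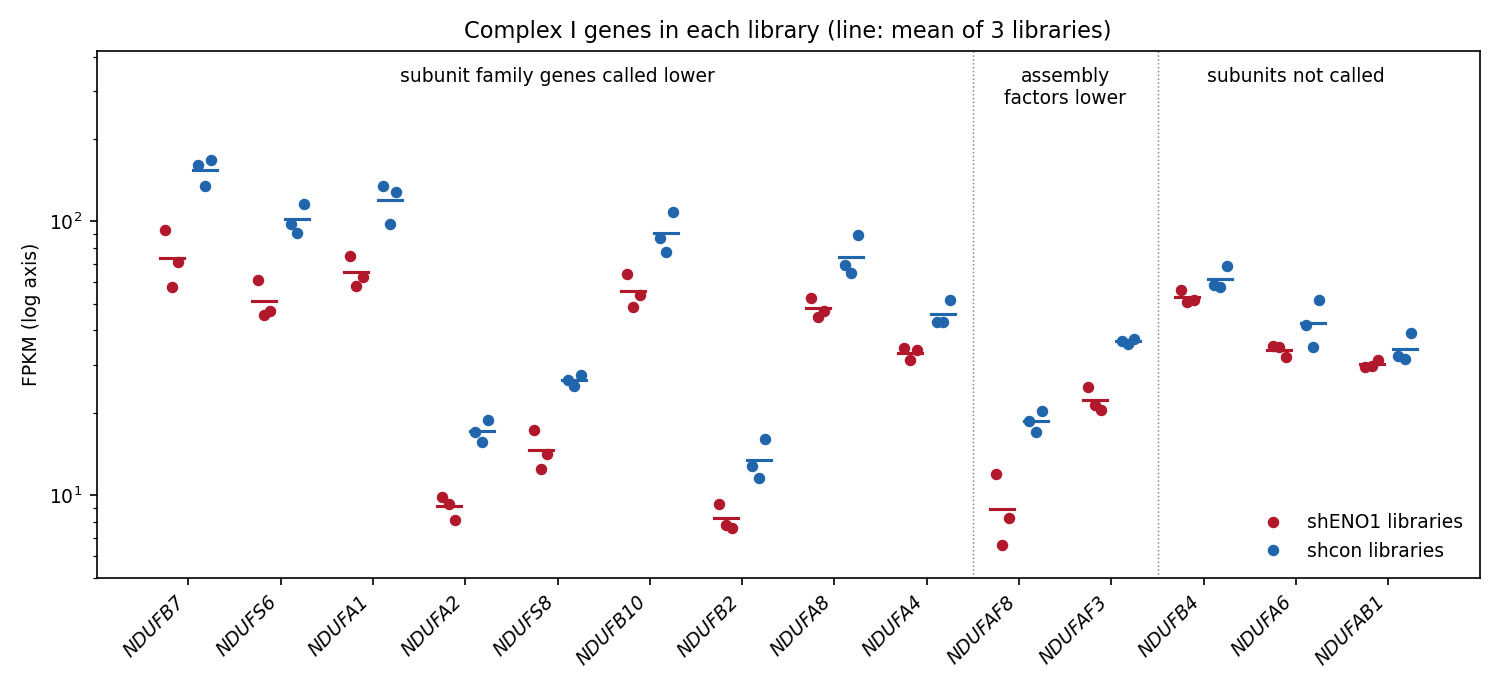
FPKM (vertical log axis) in each of the 3 shENO1 and 3 shcon libraries, with the group mean as a line, for subunit family genes called lower, both assembly factors called lower and the 3 most abundant subunit genes not called. Each gene called lower has its 3 shENO1 points under its 3 shcon points, as NDUFB7 with 57.6 to 92.9 against 135 to 167 FPKM, while the points of NDUFA6 overlap.

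Of the assembly factors 2 of 8 were lower (25.0%, against 14.4% of all genes) and 0 higher by limma, by an unadjusted p of 0.05 or by limma-voom. The median log2 fold change was 0.08, but -0.10 with the trends of GC content and length removed, where 6 of 8 were below 0. A filter at 5 FPKM kept only NDUFAF8, NDUFAF3 and NDUFAF4, and the median of -0.70 there was the value of NDUFAF3. NDUFAF8, which stabilises NDUFAF5 (chr17:81239305-81241310), had 11.99, 6.56 and 8.25 FPKM in shENO1 libraries, against 18.7, 17.0 and 20.4 FPKM in shcon libraries. Its groups were well apart, and the log2 fold change was -1.02 ± 0.19 (SE, adjusted p = 0.00875). NDUFAF3, which works with NDUFAF4 on the Q module (chr3:49020459-49023495), had 24.9, 21.4 and 20.4 FPKM in shENO1, against 36.6, 35.6 and 37.4 FPKM in shcon. It was lower without overlap, by a log2 fold change of -0.70 ± 0.10 (SE, adjusted p = 0.00439), and 21.7% of its exon bases overlap DALRD3 on the other strand. Of the partners of these genes, NDUFAF5, a hydroxylase of NDUFS7, had a log2 fold change of 0.03 and NDUFAF4 of 0.24, and neither passed the test. The others were NDUFAF1, a member of the membrane arm assembly complex, at 0.19, NDUFAF7, an arginine methyltransferase, at 0.13, NDUFAF2, a paralog of NDUFA12, at 0.09, and NDUFAF6 at 0.07. These 6 genes had overlapping groups and adjusted p values of 0.185 to 0.816. The 2 genes that were lower had a higher GC content (60.3% and 62.1%) than any of the 6 others (37.3% to 47.5%). Whether assembly factors as a group differed from subunits was not tested.

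Fold changes were correlated with transcript composition across all genes. For 7441 genes that averaged 5 FPKM or more, Spearman's rho between the log2 fold change and the GC content was -0.71, and for the 37 subunit genes it was -0.55, with points that share the same 6 libraries. Among subunit genes rho was 0.50 with exon length and -0.57 with mean FPKM. The 18 subunit genes called lower had a median GC content of 52.2%, a median exon length of 1470 bases and a median level of 24.9 FPKM, against 47.1%, 3658 bases and 5.69 FPKM for the 19 not called. When trends with GC content and exon length were removed from each library, 14 of 37 subunit genes were lower and 0 higher, against 9.75% and 11.3% of all genes, and the median was -0.27. Of these 14 genes, 12 were among the 18, including NDUFS6 (-0.61), NDUFA2 (-0.56), NDUFA1 (-0.50), NDUFS8 (-0.43), NDUFB2 (-0.71), NDUFA8 (-0.33) and NDUFA4 (-0.74). NDUFB7, NDUFB10, NDUFS5, NDUFV1, NDUFA3 and NDUFB11 no longer passed. NDUFB7 then had a log2 fold change of -0.30 (adjusted p = 0.165), NDUFB10 of -0.14 (adjusted p = 0.38) and NDUFB11, with its sign turned, of 0.11 (adjusted p = 0.277). NDUFA10 (-0.29) and NDUFB5 (-0.47) passed only after the removal. With the replicate block as well, 16 subunit genes were lower, NDUFV1, NDUFS5 and NDUFB4 passed (adjusted p = 0.0231, 0.0493 and 0.0461) and NDUFA8 did not (adjusted p = 0.0561). Of the CHCH subunits 1 of 4 was still lower in either fit, NDUFA8 without the block and NDUFS5 with it. Besides NDUFB11, the sign also turned for NDUFS1, NDUFA5, NDUFS7, NDUFA11, NDUFA13 and NDUFB8 and for NDUFAF4 to NDUFAF7, which were called neither before nor after the removal. Of the assembly factors, NDUFAF8 stayed lower (-0.45, adjusted p = 0.0369), NDUFAF3 did not pass (-0.16, adjusted p = 0.083) and NDUFAF1 was higher (0.27, adjusted p = 0.0435), though not with the block (adjusted p = 0.0523). Such a removal also takes away biology that follows GC content or length.

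**Figure D3:**
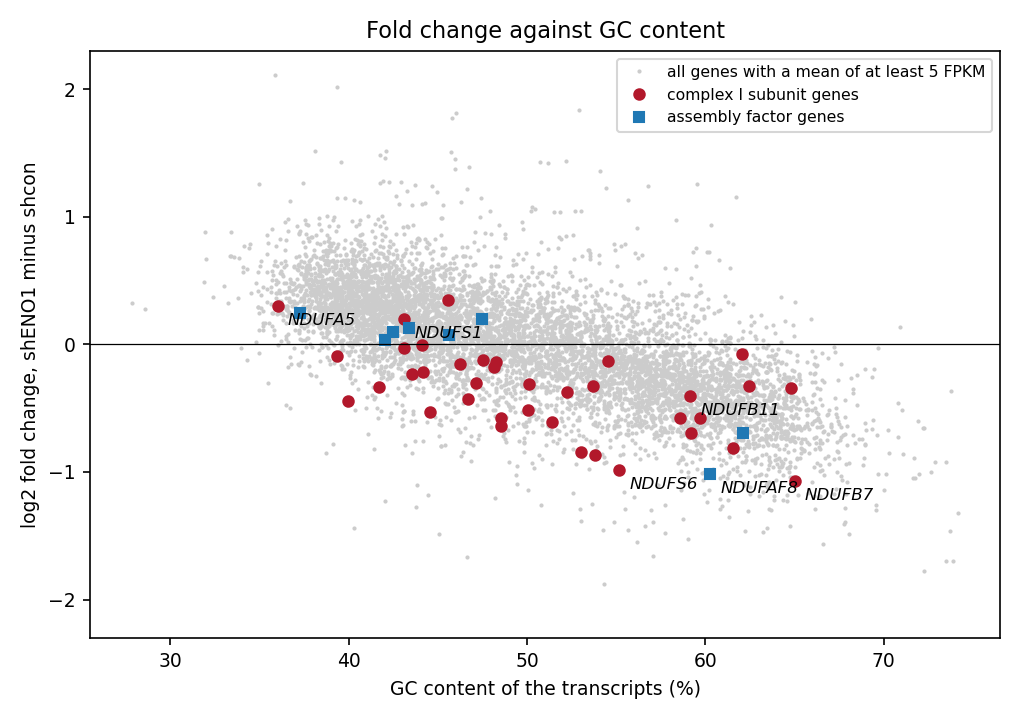
Log2 fold change (shENO1 minus shcon, vertical axis) against the GC content of the transcripts in percent (horizontal axis) for genes averaging 5 FPKM or more (grey), the 37 subunit genes tested (circles) and the 8 assembly factor genes (squares). Both the grey cloud and the circles slope downward, with rho of -0.71 and -0.55.

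Libraries differed within groups. The median deviation of the 37 subunit genes from their means over the 6 libraries was -0.14, -0.19 and -0.19 on the log2 scale in shENO1 replicates 1 to 3, against 0.14, 0.09 and 0.32 in shcon replicates 1 to 3. Subunit FPKM summed to 1067, 927 and 1007 in shENO1 and to 1466, 1304 and 1696 in shcon. Replicate 3 was the highest shcon library for 28 of 37 genes, and replicate 2 the lowest shENO1 library for 20. Without shcon replicate 3, 19 subunit genes were lower, against 18.4% of all genes. Without shENO1 replicate 2 or without shENO1 replicate 3, 6 subunit genes were lower, against 4.98% and 5.91% of all genes, and in both cases these were NDUFB7, NDUFS6, NDUFA1, NDUFA2, NDUFS8 and NDUFV1. Without shcon replicate 1, 10 were lower, against 6.18% of all genes. Without shENO1 replicate 2 or 3, NDUFB10 had adjusted p values of 0.0616 and 0.0545, NDUFB2 of 0.0573 and 0.0538, NDUFA8 of 0.0679 and 0.0577, and NDUFA4 of 0.0795 and 0.0578. NDUFV2 was higher without shENO1 replicate 1 (0.47, adjusted p = 0.043), NDUFA5 was higher without shcon replicate 3 (0.42, adjusted p = 0.0265), and NDUFA6 was lower without shcon replicate 2 (-0.44, adjusted p = 0.0495). NDUFAF8 and NDUFAF3 passed with any 1 library left out, and NDUFAF4 was higher without shcon replicate 3 (0.38, adjusted p = 0.0128).

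Sequence around the transcription start is shown for the 3 subunit genes with the largest fall and for NDUFB4, the most abundant one that did not pass, as examples of members that were lower together and of one that was not called. The windows, from RefSeq on GRCh38.p14, run from 250 bases before the start to 30 after it, at chr5:1801157-1801436 (plus strand, NDUFS6), chrX:119871582-119871861 (plus strand, NDUFA1), chr19:14572037-14572316 (minus strand, NDUFB7) and chr3:120596086-120596365 (plus strand, NDUFB4). Capitals mark matches on either strand to the letters of nuclear respiratory factor 1 (NRF1, GCGCANGCGC), YY1 (ATGGCGGC) and ETS factors (CCGGAAG).
NDUFS6: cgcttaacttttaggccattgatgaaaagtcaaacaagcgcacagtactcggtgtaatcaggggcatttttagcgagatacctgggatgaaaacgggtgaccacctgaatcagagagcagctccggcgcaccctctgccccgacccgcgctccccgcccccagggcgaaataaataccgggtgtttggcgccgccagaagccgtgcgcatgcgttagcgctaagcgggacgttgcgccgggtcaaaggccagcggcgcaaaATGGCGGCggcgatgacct
NDUFA1: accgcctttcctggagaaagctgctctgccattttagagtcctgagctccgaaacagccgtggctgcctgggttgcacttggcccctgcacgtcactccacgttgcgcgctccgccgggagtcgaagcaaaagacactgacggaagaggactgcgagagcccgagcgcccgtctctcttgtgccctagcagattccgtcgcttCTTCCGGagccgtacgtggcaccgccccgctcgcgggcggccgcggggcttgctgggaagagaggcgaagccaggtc
NDUFB7: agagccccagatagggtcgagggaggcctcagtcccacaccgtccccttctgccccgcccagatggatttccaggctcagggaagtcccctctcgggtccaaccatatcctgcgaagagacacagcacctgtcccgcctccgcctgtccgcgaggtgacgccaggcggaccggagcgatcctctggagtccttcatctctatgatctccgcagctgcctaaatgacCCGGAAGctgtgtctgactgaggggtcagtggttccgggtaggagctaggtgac
NDUFB4: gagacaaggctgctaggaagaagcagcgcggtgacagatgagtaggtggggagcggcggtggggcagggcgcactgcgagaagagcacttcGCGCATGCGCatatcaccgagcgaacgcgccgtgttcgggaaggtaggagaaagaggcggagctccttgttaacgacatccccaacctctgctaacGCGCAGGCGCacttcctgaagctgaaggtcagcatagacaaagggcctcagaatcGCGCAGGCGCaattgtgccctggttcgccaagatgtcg

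NDUFS6 holds a YY1 match that begins at base 12 after the start. NDUFA1 holds an ETS match on the other strand from base -47 and NDUFB7 an ETS match from base -24, while NDUFB4, which did not pass the test, holds 3 NRF1 matches that begin at bases -159, -63 and -8. Windows from 250 bases before to 50 after the start were found for 39 of the 47 genes, the first one listed being used where a gene had more than 1 (6 genes). Both strands were searched. The CREB letters read the same on both strands, and no motif holds another whole. The NRF1 letters occurred in 18.8% of 32 subunit windows and in 5.74% of all 34943 windows, the YY1 letters in 28.1% and 3.0%, and the ETS letters in 15.6% and 10.2%. The SP1 letters GGGCGG, which are not capitalised above, occurred in 62.5% and 44.9%, the CREB letters TGACGTCA in 6.25% and 1.84%, and the letters TCAAGGTCA of estrogen-related receptors in 0 of 32 subunit windows and 0.355% of all. Among subunit genes called lower (16 windows) and not called (15 windows), NRF1 letters were in 2 and 4, YY1 letters in 3 and 5, ETS letters in 2 and 3 and SP1 letters in 11 and 8. These matches describe letters, not binding.

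Other genes of complex I and of the respiratory chain were counted by lists. Of 15 other complex I assembly genes 2 were lower, against 14.4% of all genes, and 0 higher, with a median of -0.17, and 4 were lower with the trends of GC content and length removed. DMAC1, a factor of the distal membrane arm, had 9.48, 7.74 and 8.36 FPKM in shENO1 libraries, against 13.0, 11.4 and 13.0 FPKM in shcon libraries, without overlap, and it fell by 0.50 on the log2 scale (adjusted p = 0.0123). Without shENO1 replicate 2, shENO1 replicate 3 or shcon replicate 1 its adjusted p was 0.0618, 0.0523 and 0.0555. None of the 7 mitochondrially encoded ND mRNAs passed the limma test (0 lower and 0 higher, with 1 each at an unadjusted p of 0.05), and their median was 0.20. Limma-voom tested 6 of them, with 1 lower and 0 higher. Of all 7, with the trends removed 1 was lower, without shENO1 replicate 1 there was 1 higher, and without shcon replicate 2 there was 1 lower. MT-ND4, the most abundant, had 6822, 6924 and 6952 FPKM in shENO1, against 7428, 7698 and 7132 FPKM in shcon, a log2 fold change of -0.10 with an adjusted p of 0.405. Its shENO1 libraries were just below the shcon libraries. Lists of the other complexes had medians below 0 as well. Of 8 complex II genes 3 were lower (median -0.23) and of 9 complex III genes 5 (median -0.44). Of 10 complex IV genes 7 were lower (median -0.57) and of 18 ATP synthase genes 8 (median -0.34). Of all genes, 14.4% were lower. In each list 0 were higher by limma or limma-voom, with 1 complex II gene higher at an unadjusted p of 0.05. With the trends of GC content and length removed, the lower counts were 2, 5, 7 and 12 in that order, and 0 were higher. The medians were then -0.06, -0.33, -0.38 and -0.41, and 9.75% of all genes were lower. With the replicate block complex II had 2 genes lower and 1 higher, since SDHA no longer passed (adjusted p = 0.0524) and SDHAF3, an assembly factor of complex II, did (0.25, adjusted p = 0.0456). Without shENO1 replicate 1 complex II also had 2 lower and 1 higher. The lower counts of complexes II, III, IV and ATP synthase were 0, 1, 1 and 6 without shENO1 replicate 2. They were 1, 2, 3 and 6 without shENO1 replicate 3, and 0, 2, 4 and 8 without shcon replicate 1. Of all genes, 4.98%, 5.91% and 6.18% were lower in these fits, in that order. For complex II the lower count was also 1 without shcon replicate 2, against 9.58% of all genes.

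Of 13 regulators of nuclear respiratory genes or of mitochondrial DNA transcription 2 were lower and 5 higher, against 14.4% and 15.1% of all genes, with a median of 0.28. The list held the mitochondrial transcription genes POLRMT, TFAM, TFB1M and TFB2M beside nuclear factors such as NRF1, GABPA and YY1. POLRMT, the mitochondrial RNA polymerase, had 19.7, 14.2 and 13.6 FPKM in shENO1 libraries, against 28.4, 25.6 and 21.2 FPKM in shcon libraries, a log2 fold change of -0.64 (adjusted p = 0.0224) without overlap. TFAM, the mitochondrial transcription factor, had 25.6, 29.4 and 31.5 FPKM in shENO1, against 17.8, 18.5 and 22.2 FPKM in shcon, a log2 fold change of 0.54 (adjusted p = 0.0143), again without overlap. The other regulators called were ESRRA, lower (-0.44), and PPARGC1A (0.51), SP1 (0.50), GABPB1 (0.42) and YY1 (0.38), all higher, with adjusted p values of 0.0119 to 0.041. With the trends of GC content and length removed, POLRMT did not pass (-0.13, adjusted p = 0.119) and TFAM was at 0.17 (adjusted p = 0.0484, and 0.0545 with the replicate block). In that fit 0 regulators were lower and 3 higher (TFAM, YY1 and PPARGC1B), against 9.75% and 11.3% of all genes. Without shENO1 replicate 2 or 3, 0 regulators were lower and 0 higher, and without shcon replicate 1, 0 were lower and 1 higher. Of all genes, 4.98%, 5.91% and 6.18% were lower in these fits, in that order, and 4.96%, 6.3% and 6.11% higher.

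**Figure D4:**
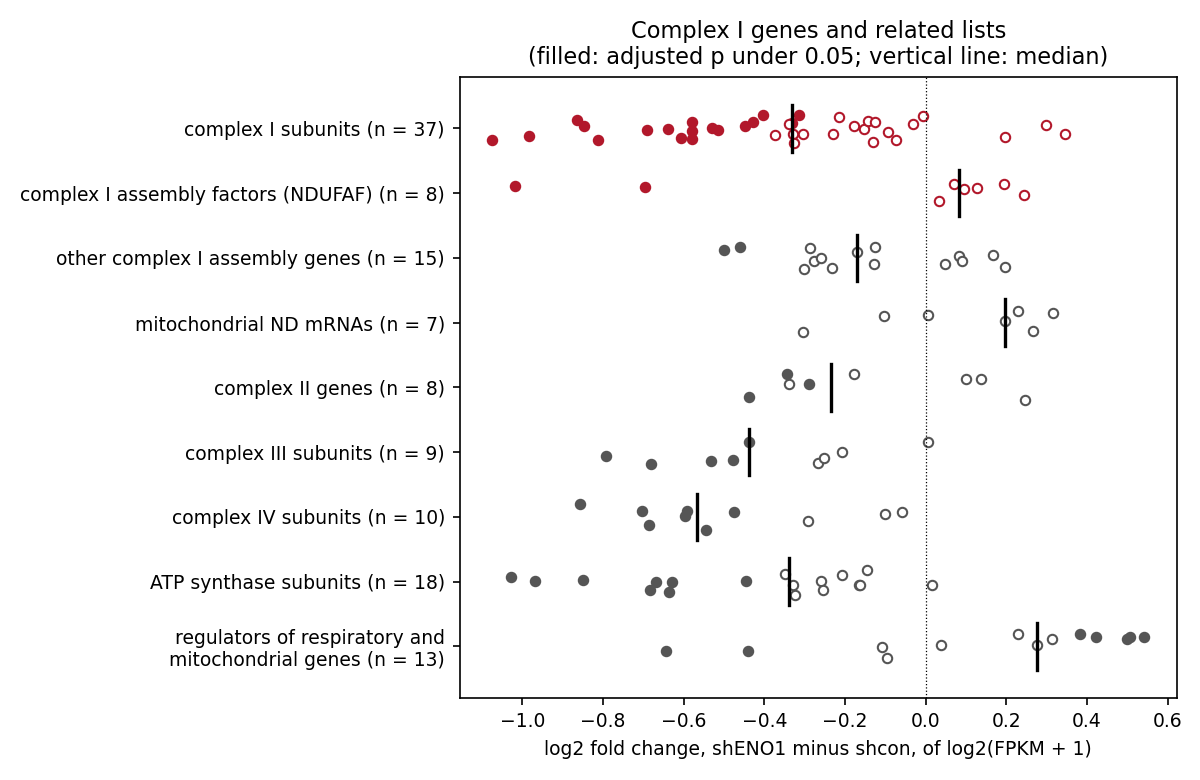
Log2 fold changes (shENO1 minus shcon, horizontal axis) of single genes in the complex I lists and in related lists, filled where the adjusted p was under 0.05, with the median of each list as a vertical line. The medians lie at -0.33 for subunits, 0.08 for assembly factors, -0.57 for complex IV and 0.28 for the regulators.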

How the data were processed

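The authors deposited 1 FPKM value per gene and library for 30716 Ensembl genes. Per the labels, reads of low quality or short length were removed, and the submitters' processing notes name cutadapt, featureCounts, MultiQC and GRCh38. For the aligner, annotation release and FPKM program, nothing is given in the sources used here. Coordinates are those of the deposited table. Low FPKM values were whole multiples of 1 fragment (94.2% to 94.6% of values up to 100 fragments within 0.05), which gave the depth. For 8973 genes the length used to recover fragments was fitted, not annotated. Some fitted lengths were far above the exon length, as for NDUFB9 (16590 against 4106 bases) and NDUFA12 (8223 against 1815). Others were close to it, as for NDUFB4 (1877 against 1889), or below it, as for NDUFA1 (421 against 766). Fragment counts of genes with a fitted length are therefore uncertain, and so are their limma-voom results.

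Groups were compared with limma 3.58.1 (lmFit and eBayes with a trend) in R 4.3.3 on log2(FPKM + 1) for the 15181 genes that averaged 0.5 FPKM or more, as shENO1 minus shcon. P-values were adjusted by the Benjamini-Hochberg method over all these genes, with a threshold of 0.05. Fold changes on this scale understate the change of low genes. The samples are called biological replicates, but separate cultures or infections are not described, so p-values measure the spread between these samples, which may be technical. Equally numbered libraries deviated together (Pearson's r 0.23, 0.12 and 0.26), so the replicate number was used as a block in an alternative. This pairing comes from the data, not from the labels.

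Trends over GC content and exon length were fitted as natural splines (4 degrees of freedom) (GENCODE 29, 15031 genes with both), in each library and on 7338 genes outside the lists averaging 5 FPKM or more. Other alternatives were a pseudocount of 0.1 or 0.5, all genes without a filter, a filter at 5 FPKM, an untrended eBayes, quantile and median-of-ratios scaling, limma-voom on recovered fragments of 15173 genes, and each library left out. The fitting step was tested on simulated data.

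The members and lists were chosen with earlier results of these data known. Values per library are given for every member called higher, the 8 subunits and up to 4 assembly factors with the largest fall among those called, the 3 most abundant uncalled subunits, NDUFA4 and NDUFA4L2, and up to 3 genes of each other list. Parts of the complex were assigned by hand. Results of 1 member are not reported here by name. Tables were made with Python 3.11.15, pandas 2.3.3 and scipy 1.17.1, and figures with matplotlib 3.10.9.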

Additional observations from a re-analysis of the deposited data

How the results depend on the processing

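Over 17 alternatives, 646 of 751 pairs of a complex I gene and an alternative kept the direction and the side of the threshold, 53 lost and 22 gained the call, and 30 changed sign, 2 of them for a gene called in the reported fit (NDUFB11). With the trends of GC content and length removed, with and without a replicate block alike, the sign turned for NDUFB11 (0.115), NDUFS7 (0.125), NDUFA11 (0.0851), NDUFB8 (0.165), NDUFA13 (0.431), NDUFS1 (-0.136), NDUFA5 (-0.229), NDUFAF4 (-0.0584), NDUFAF5 (-0.278), NDUFAF6 (-0.124) and NDUFAF7 (-0.0694). It also turned for NDUFS4 (0.0196) and NDUFAF5 (-0.005) with quantile normalization, and with 1 library left out the values lay on both sides of 0 for NDUFS4 (-0.129 to 0.12), NDUFA9 (-0.0654 to 0.0519), NDUFAF5 (-0.000687 to 0.0633) and NDUFAF6 (-0.00394 to 0.136). NDUFA1, NDUFA2, NDUFS6, NDUFS8 and NDUFAF8 were lower under every alternative run. The count of lower subunit genes (18) is given here with the share of all genes that were lower (14.4% in the reported fit). It was 14 without a filter (4.24%) and 20 with a filter at 5 FPKM (24.3%), which left fewer subunit genes to test. The count was 14 with trends removed (9.75%), 20 with a replicate block (17.9%), 16 with both (9.21%) and 21 with limma-voom (16.3%). With the other pseudocounts, scalings and no eBayes trend it was 18 or 19 (13.8% to 15.7%). With 1 library left out it ranged over 6 to 19, with 6 without shENO1 replicate 2 or 3 and 10 without shcon replicate 1, and the count of higher subunit genes over 0 to 1. The median of the subunits (-0.332) was -0.438 with a filter at 5 FPKM and -0.403 to -0.284 with 1 library left out. For assembly factors, lower genes numbered 1 with trends removed, with or without the replicate block (2 otherwise), and higher genes 1 with trends removed without the block and 0 to 1 with 1 library left out. Their median (0.0832) was -0.0967 with trends removed, with or without the block, and 0.0217 to 0.164 with 1 library left out. With a filter at 5 FPKM it was -0.696, over NDUFAF8, NDUFAF3 and NDUFAF4 only. The replicate block took no call away from a subunit or assembly factor gene and added 2, that of NDUFS3 among them. The median of all genes was 0.03, 0.02 with quantile and 0.01 with median-of-ratios scaling.

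With 3 libraries in each group and fragments of 30 to 155 in NDUFA13, NDUFB8, NDUFV2 and NDUFA11, depth limits these genes most. Overlapping exons could mix reads of neighbours in NDUFS7 (49.1%), NDUFB8 (48.5%), NDUFA7 (33.5%), NDUFV2 (28.4%), NDUFS3 (22.4%), NDUFB9 (21.0%) and NDUFA13 (21.0%). Among genes called lower, besides those given above, NDUFB3 (19.8%, on the other strand) and NDUFC1 (18.5%, with MGARP on the same strand) overlap other genes as well.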

Other observations

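The 26 remaining rows that match the symbols were 2 antisense rows (NDUFV2-AS1 and NDUFB2-AS1), the divergent transcript NDUFA6-DT and pseudogene copies. Of these, 7 reached a mean of 0.5 FPKM, 1 was lower, against 14.4% of all genes, and 0 were higher. The lower one, NDUFA4P1, a processed pseudogene of NDUFA4, averaged 2.50 FPKM in shENO1 and 5.97 FPKM in shcon libraries from 7 to 29 fragments (log2 fold change -1.04, adjusted p = 0.0197 in limma). Its reads may be shared with NDUFA4, so this value is uncertain. NDUFB4P12 averaged 1.70 FPKM in shENO1 and 2.77 FPKM in shcon, and it did not pass (adjusted p = 0.0951 in limma) but was lower with the replicate number as a block (adjusted p = 0.0132). NDUFA5P11 averaged 2.62 FPKM in shENO1 and 2.79 FPKM in shcon and did not pass.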
